A study of Mus musculus with 44 samples.

Results

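Dkk1, Cer1, Hesx1, Otx2, Gsc and Trh, genes known from the anterior endoderm and the head organizer of the vertebrate embryo, were followed across mouse embryonic stem (ES) cells that carry the homeodomain factor Hex. They were taken as every probe set whose platform annotation names one of these 6 genes as its only gene. That gave 5 genes with 1 probe set each (Dkk1 99881_at, Cer1 93452_at, Hesx1 98804_at, Gsc 94187_at and Trh 102665_at) out of 8251 genes measured. No probe set is annotated to Otx2, so no value is given for it.

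The cells are mouse ES cells of the CGR8 line (clone CGR8.8), hybridised to single-channel Affymetrix MG-U74Av2 arrays. Hex (gene symbol Hhex) or the fusion HexERTVP2 was targeted to Rosa26, a locus active in most mouse cells, and each line was measured before and after recombination. The name HexERTVP2 reads as a fusion of Hex with a domain of the oestrogen receptor, which binds 4-hydroxytamoxifen (4-OHT), and with an activation domain of the VP type. Recombination at such loci is commonly what switches an insert on, though the labels are silent on that. The 40 arrays that the labels place in a group were 4 of recombined Hex, 4 of unrecombined Hex, 4 of recombined HexERTVP2 clone 1 with 4-OHT, 4 of the same cells without it, 3 of unrecombined clone 1 with 4-OHT, 5 without it, 3 each of recombined clone 2 with 4-OHT, recombined clone 2 without it, unrecombined clone 2 with 4-OHT and unrecombined clone 2 without it, and 4 of wild-type cells. HexERTVP2 thus rests on 2 clones, and the number of Hex clones is not stated. No label ties the arrays of a group to separate cultures, and the p-values therefore cover array-to-array spread alone, which may be technical.

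In the mouse embryo the anterior visceral endoderm, where Hex is an early marker, lies beside the future head and secretes antagonists of Wnt, Nodal and BMP signals. Dkk1 binds the Wnt co-receptors Lrp5 and Lrp6, and Cer1 binds Nodal and BMP ligands. Hesx1, Otx2 and Gsc are homeodomain factors: Hesx1 and Otx2 are needed for the forebrain, and Gsc is a repressor first known from the organizer of Xenopus. Trh encodes the precursor of thyrotropin-releasing hormone, the hypothalamic peptide that drives thyrotropin release from the pituitary.

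The 3 members with the widest span of group means are shown by the 250 bases before their RefSeq start site (GRCm38.p6, 5′ to 3′ on the gene's strand). Dkk1, which is shown, and Gsc, which is not, were nearly level, with log2 spans of 0.28 and 0.27. The sequences place the letters that Hex and the Wnt pathway are known to read. Capitals mark ATTAA (a core of sites bound by Hex), CTTTG (a core of TCF/LEF sites) and TGACCTCA (an element studied in the Trh promoter), each on either strand. The windows are chr6:92244651-92244900, minus strand, for Trh, chr19:30549497-30549746, minus strand, for Dkk1, and chr14:27000112-27000361, plus strand, for Hesx1.
Trh: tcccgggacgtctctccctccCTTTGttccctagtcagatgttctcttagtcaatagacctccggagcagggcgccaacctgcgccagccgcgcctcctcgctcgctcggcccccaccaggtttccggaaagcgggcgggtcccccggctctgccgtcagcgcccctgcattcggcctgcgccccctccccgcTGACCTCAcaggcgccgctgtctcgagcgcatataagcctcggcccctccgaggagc
Dkk1: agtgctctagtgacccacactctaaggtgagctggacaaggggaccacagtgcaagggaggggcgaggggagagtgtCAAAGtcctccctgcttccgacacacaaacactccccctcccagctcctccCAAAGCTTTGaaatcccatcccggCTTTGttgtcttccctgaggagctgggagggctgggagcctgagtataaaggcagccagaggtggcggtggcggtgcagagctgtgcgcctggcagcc
Hesx1: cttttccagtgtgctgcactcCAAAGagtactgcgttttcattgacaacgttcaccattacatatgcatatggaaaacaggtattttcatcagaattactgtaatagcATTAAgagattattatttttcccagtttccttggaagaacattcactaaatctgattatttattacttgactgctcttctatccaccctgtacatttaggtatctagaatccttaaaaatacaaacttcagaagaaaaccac
The Trh window held TGACCTCA at 1 position and CTTTG at 1, and no ATTAA. TGACCTCA was chosen as an element of that promoter, so its match there was given in advance. The Dkk1 window held CTTTG at 4 positions, a pair of which adjoin in CAAAGCTTTG, and neither of the other motifs. The Hesx1 window held ATTAA at 1 position and CTTTG at 1. Among 32841 windows of this length, 24.9% held ATTAA, 48.6% CTTTG and 1.94% TGACCTCA. The Cer1 window held ATTAA at 1 position and CTTTG at 2, and the Gsc window CTTTG at 1. Otx2 had several windows, with ATTAA at 1 position in window 1, at 3 in window 3 and at none in windows 2 and 4. None of them held CTTTG. These matches describe letters and do not show binding.

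The cells kept a high level of ES cell genes. Pou5f1, Sox2, Nanog and Zfp42, which mark ES cells, averaged 11.38, 11.16, 11.11 and 10.80 on the log2 intensity scale, above 97.8 to 98.8% of the probe sets. The Hhex probe set lay between 4.94 and 6.46 over all arrays. Unrecombined Hex held the lowest value and ran from 4.94 to 6.32, while every other group stayed at 5.95 or above. The Hhex probe set did not pass the test for recombination of Hex (log2 change 0.36, SE 0.16, limma adjusted p = 0.243), so it did not check the labels. Whether it covers the inserted sequence is not known here. Array 2 of unrecombined Hex stood apart: its mean correlation with the other arrays was 0.869, against 0.978 to 0.990 for the others, and its log2 SD was 1.60, against 1.79 to 1.98. Its summed intensity was 8128 over 16 ES cell genes, against 13100 to 18980 on the other 39 assigned arrays, and 2959 over 11 fibroblast genes, against 1188 to 1750. The log2 ratio of the 3′ to the 5′ β-actin control probe sets, which rises as RNA is degraded or incompletely copied, ran from 0.56 to 2.34 over the 40 arrays, and reached 2.84 on 1 of the 4 arrays that entered no comparison.

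Trh was the member with a clear level and the widest spread among the groups. It averaged 8.69 over the 40 arrays, above 84.5% of the probe sets, and its group means spanned 1.18. Dkk1 averaged 5.16, Gsc 4.48, Cer1 4.45 and Hesx1 4.43, against 6.77 for the median probe set. The 15 control sets for bacterial RNAs, which mouse cells do not make, averaged between 3.47 and 6.43 with a median of 4.39, so these 4 genes lay within that range, and a change in their RNA may be understated. The group means spanned 0.42 for Hesx1, 0.28 for Dkk1, 0.27 for Gsc and 0.13 for Cer1, against a median span of 0.338 over all probe sets. A test for any difference among the 11 groups called 5.17% of all probe sets and 1 of the 5 members, Trh (limma F-test, adjusted p = 4.14e-04); the adjusted p-values were 0.172 for Dkk1, 0.272 for Hesx1, 0.879 for Gsc and 0.992 for Cer1. In bulk RNA, fewer cells of a type and less RNA per cell cannot be told apart.

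The order of the Trh group means ran from unrecombined clone 1 without 4-OHT at 9.30 ± 0.37 (SD, n = 5) down to unrecombined Hex at 8.12 ± 0.17 (SD, n = 4). Between them lay unrecombined clone 1 with 4-OHT (9.22), unrecombined clone 2 without it (9.03), recombined clone 2 without it (8.76), recombined Hex (8.68), unrecombined clone 2 with 4-OHT (8.66), wild type (8.52), recombined clone 2 with 4-OHT (8.49), recombined clone 1 with 4-OHT (8.46) and recombined clone 1 without it (8.34). Of the neighbours in this order, recombined clone 1 without 4-OHT and unrecombined Hex differed by more than the larger of their SDs, and no other neighbours did.

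**Figure D1:**
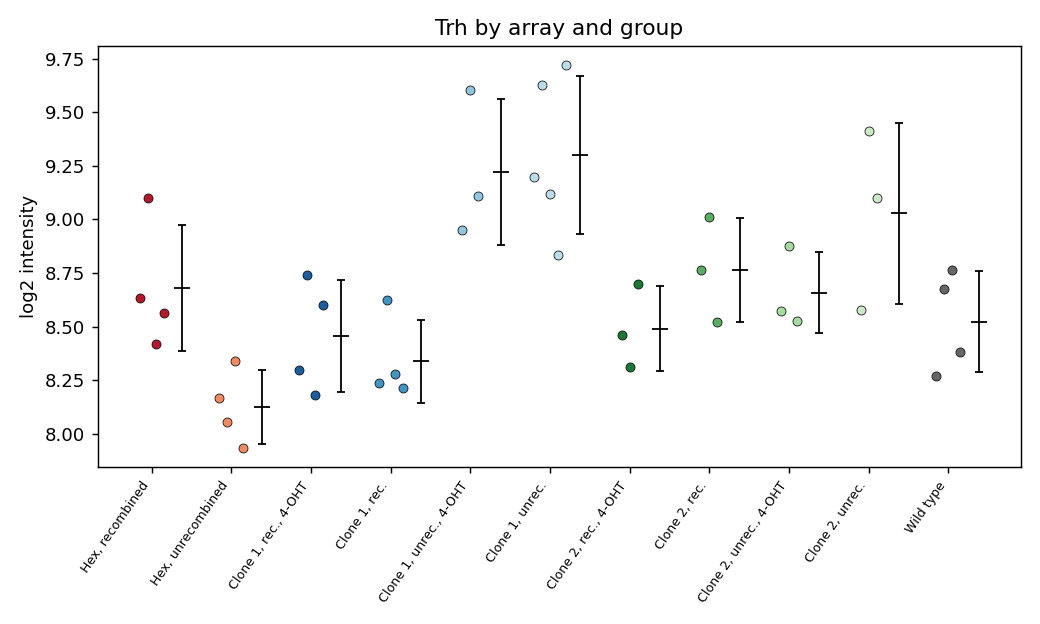
Trh log2 intensity on each array (points) by group, with the group mean and SD as a bar beside the points. The 3 highest group means are those of unrecombined HexERTVP2 cells, at 9.30, 9.22 and 9.03, and the lowest is unrecombined Hex at 8.12.

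Trh was lower after recombination of HexERTVP2. Without 4-OHT, Trh read 8.24, 8.63, 8.28 and 8.21 in recombined clone 1, against 9.20, 9.63, 9.12, 8.83 and 9.72 in unrecombined clone 1. Each recombined array of clone 1 lay below each unrecombined one. The share of all probe sets that separate in this way was not counted in any comparison, and groups this small can separate by array spread alone. In clone 2 the values were 8.76, 9.01 and 8.52 in recombined cells and 8.58, 9.41 and 9.10 in unrecombined cells, and the groups overlapped. Averaged over the clones, Trh fell by 0.61 on the log2 scale (SE 0.14, limma adjusted p = 0.0346), to 0.654 of its unrecombined level. This comparison called 0.467% of all probe sets and 1 of 5 members. Within clone 1 the change was -0.96 (SE 0.18, adjusted p = 0.00261, where 0.547% of probe sets passed), and within clone 2 it was -0.27 (SE 0.22, adjusted p = 0.670, where 0.322% passed). The difference between the clones was 0.70 (SE 0.28, clone 2 minus clone 1) and did not pass (adjusted p = 0.542, 0.29% of probe sets called). The mean β-actin ratio was 0.44 higher in recombined cells; adjusted for that ratio, the averaged Trh change was -0.41 (adjusted p = 0.0280, 0.749% of probe sets called). Leaving out 1 array ended the averaged call in 9 of 15 cases, with changes from -0.73 to -0.52 over the 15 and adjusted p up to 0.152; the arrays were 2 and 5 of unrecombined clone 1, arrays 2 and 3 of unrecombined clone 2, arrays 1, 3 and 4 of recombined clone 1, and arrays 2 and 4 of recombined clone 2. The clone 1 call held in each of its 9 cases, with adjusted p up to 0.0206.

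With 4-OHT the same comparison gave a smaller value that did not pass. Trh read 8.30, 8.74, 8.18 and 8.60 in recombined clone 1 with 4-OHT, against 8.95, 9.60 and 9.11 in unrecombined clone 1 with 4-OHT. Each recombined array again lay below each unrecombined one. In clone 2 with 4-OHT the values were 8.46, 8.31 and 8.70 in recombined cells and 8.57, 8.88 and 8.53 in unrecombined cells. The averaged change was -0.47 (SE 0.15, limma adjusted p = 0.615). The comparison called 0.185% of probe sets and none of the members. There 1 of 5 members, Trh, had an unadjusted p under 0.05, beside 2.63% of all probe sets. Adjusted for the β-actin ratio the averaged Trh change was -0.43 (adjusted p = 0.0234, 0.451% of probe sets called).

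Trh was higher in unrecombined HexERTVP2 cells than in wild type and in unrecombined Hex, all without 4-OHT. The wild-type arrays read 8.27, 8.67, 8.77 and 8.38, below each array of unrecombined clone 1 without 4-OHT and overlapping clone 2. Averaged over the clones the difference from wild type was 0.64 (SE 0.17, limma adjusted p = 0.0399), or 1.56-fold; this comparison called 1.46% of probe sets and 1 of 5 members. It was 0.78 for clone 1 (SE 0.18, adjusted p = 0.0461, 0.298% of probe sets called) and 0.51 for clone 2 (SE 0.20, adjusted p = 0.118, 6.79% called). The mean β-actin ratio was 0.26 lower in unrecombined HexERTVP2 cells than in wild type; adjusted for it, the averaged difference was 0.52 (adjusted p = 0.00377, 3.86% of probe sets called). Leaving out any of arrays 2 and 5 of unrecombined clone 1, arrays 2 and 3 of unrecombined clone 2 or arrays 1, 2 and 4 of wild type ended the averaged call, with adjusted p up to 0.190. For clone 1 alone, arrays 1, 2, 3 and 5 of that clone and arrays 1, 2 and 4 of wild type did so, with adjusted p up to 0.281.

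Against unrecombined Hex the gap was larger. The unrecombined Hex arrays read 8.17, 8.06, 8.34 and 7.93, below all 8 arrays of unrecombined HexERTVP2 without 4-OHT. The difference was 1.04 (SE 0.17, limma adjusted p = 1.03e-04), or 2.06-fold, in a comparison that was added after the values were seen and that called 4.16% of probe sets. It kept its call without array 2 of unrecombined Hex (1.02, adjusted p = 2.93e-04, 7.97% of probe sets called) and after adjustment for the β-actin ratio (0.79, adjusted p = 1.77e-05, 4.47% called), which was 0.54 lower in unrecombined HexERTVP2. Dkk1 was called there too (0.26, SE 0.06, adjusted p = 0.0148), but not without array 2 (0.20, adjusted p = 0.0507).

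In the Hex line the Trh difference had the opposite sign. The recombined Hex arrays read 8.63, 9.10, 8.42 and 8.56, each above each of the unrecombined Hex arrays. How many of all probe sets separate likewise was not counted. The Trh change was 0.55 (SE 0.19, 95% interval 0.17 to 0.94) and missed the threshold (limma adjusted p = 0.108). In this comparison 3 of 5 members, Trh among them, had an unadjusted p under 0.05, beside 15.9% of all probe sets. Without array 2 the Trh change was 0.53 (adjusted p = 0.125). The mean β-actin ratio was 0.34 lower in recombined Hex; adjusted for it, the change was 0.40 (adjusted p = 0.0567, 5.28% of probe sets called). Trh passed with array weights (0.53, adjusted p = 0.0312) and with that adjustment without array 2 (0.49, adjusted p = 0.00555). The difference between the recombination effects of Hex and of HexERTVP2 without 4-OHT, tested after the values were seen, was 1.17 for Trh (SE 0.24, limma adjusted p = 0.00620, 1.94% of probe sets called). It remained called without array 2 (1.15, adjusted p = 0.00350, 8.16% called) and after adjustment for the β-actin ratio (0.80, adjusted p = 0.00466, 1.73% called). The ratio itself differed by -0.78 in this comparison. Its unrecombined arrays are those of the difference of 1.04 between the unrecombined lines, so the 2 values are not separate results. Mean Trh was 8.68 in recombined Hex, and 8.34 and 8.76 in recombined clones 1 and 2 without 4-OHT. Against wild type, Trh differed by 0.16 in recombined Hex (SE 0.19, adjusted p = 0.767) and by -0.40 in unrecombined Hex (SE 0.19, adjusted p = 0.187). No member was called in the second comparison, where 4.82% of probe sets were. There 1 of 5 members, Trh, had an unadjusted p under 0.05, beside 25.6% of all probe sets.

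Trh followed the β-actin ratio within groups. In a fit with the groups and the ratio, Trh changed by -0.47 for each unit of the ratio (SE 0.07, limma adjusted p = 1.54e-06); such a slope was called for 58.8% of all probe sets. The slopes of the other members were smaller: 0.15 for Cer1 (SE 0.05, adjusted p = 0.0117), 0.14 for Hesx1 (SE 0.05, adjusted p = 0.0249), -0.09 for Dkk1 (SE 0.04, adjusted p = 0.0385) and -0.02 for Gsc (SE 0.06, adjusted p = 0.763).

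**Figure D2:**
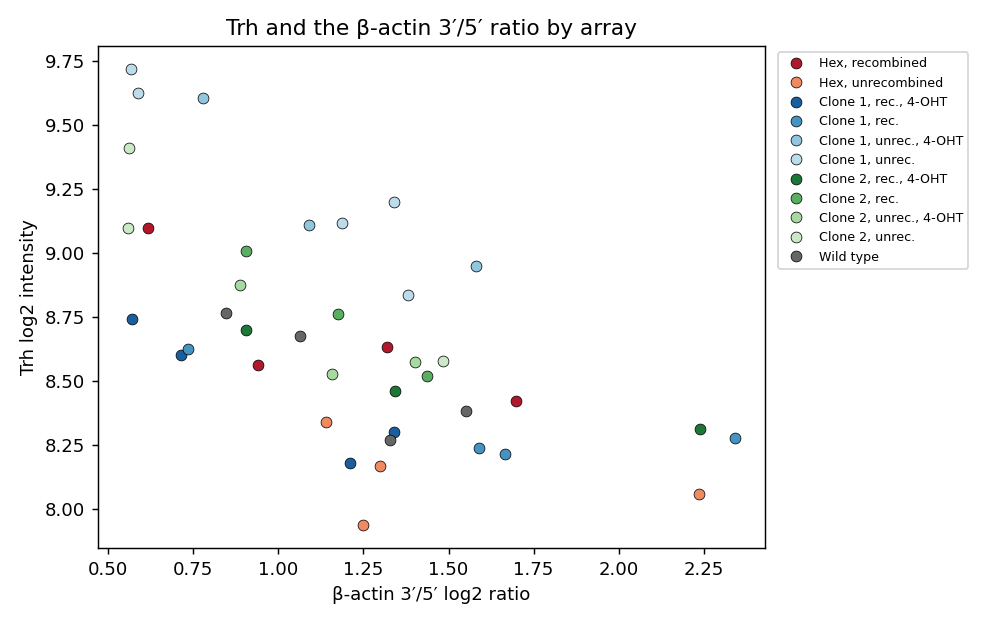
Trh log2 intensity against the β-actin 3′/5′ log2 ratio, 1 point per array, coloured by group. Trh is lower on arrays with a higher ratio (slope -0.47 within groups), and each array of unrecombined clone 1 (at least 8.83) lies above each array of recombined clone 1 (at most 8.74).

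No member passed the test for 4-OHT in either state. In recombined cells, averaged over the clones, Trh differed by -0.08 (SE 0.14), Gsc by 0.08 (SE 0.09), Dkk1 by 0.02 (SE 0.06), Cer1 by -0.01 (SE 0.08) and Hesx1 by 0.00 (SE 0.08). In unrecombined cells Trh differed by -0.22 (SE 0.15) and Hesx1 by -0.08 (SE 0.08). The adjusted p was 1 for each member in the first comparison and 0.9997 in the second. Limma called 0.0322% of probe sets in recombined cells, 0% in unrecombined cells and 0.0161% for the difference between the states, and none of the members in these 3 tests. No member had an unadjusted p under 0.05 in them, beside 1.54%, 1.36% and 2.59% of all probe sets. The 95% intervals reached -0.37 to 0.22 for Trh in recombined cells and -0.52 to 0.07 in unrecombined cells. For no member did the response to 4-OHT differ by a called amount in recombined clone 2 against recombined clone 1, with 0% of probe sets called. No member had an unadjusted p under 0.05 there, beside 0.741% of all probe sets. The widest interval was that of Trh, -0.98 to 0.20.

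Clone 2 against clone 1, averaged over the 4 conditions, called 1.22% of probe sets and none of the members in limma. No member had an unadjusted p under 0.05, beside 7.32% of all probe sets. Trh differed by -0.09 (SE 0.10) and Hesx1 by 0.05 (SE 0.06). Single conditions varied more: Trh was 0.56 lower in clone 2 among unrecombined cells with 4-OHT, where the arrays of the clones did not overlap (SE 0.22, adjusted p = 0.851, 0.346% of probe sets called). Hesx1 did not overlap between unrecombined clones in either treatment. The share of all probe sets without overlap was not counted in any comparison, and groups of 3 to 5 arrays can separate by array spread alone. For Hesx1, clone 2 minus clone 1 was -0.23 (SE 0.12) with 4-OHT and 0.23 (SE 0.11) without it, and neither passed. With 4-OHT it passed under array weights (-0.29, adjusted p = 0.0331); without 4-OHT it passed after adjustment for the β-actin ratio without array 2 of unrecombined Hex (0.24, adjusted p = 0.0279) and without the arrays with a ratio above 2 (0.23, adjusted p = 0.0472).

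Among the antagonists, Dkk1 was called in the Hex line. It read 5.28, 5.30, 5.17 and 5.20 in recombined Hex, against 5.04, 4.79, 5.07 and 5.02 in unrecombined Hex and 4.97, 5.14, 4.96 and 5.16 in wild type. The recombined arrays lay above all arrays of both other groups, though the share of all probe sets that do so was not counted. The change against unrecombined Hex was 0.25 (SE 0.07, limma adjusted p = 0.0454), or 1.19-fold, in a comparison that called 3.37% of probe sets and 1 of 5 members. It did not pass without array 2 of unrecombined Hex (0.19, adjusted p = 0.108), which had the lowest Dkk1 of all arrays, nor without array 4 of that group or arrays 1, 2 or 4 of recombined Hex (0.23 to 0.27, adjusted p up to 0.145). Against wild type the difference was 0.18 (SE 0.07, adjusted p = 0.547), where 0.266% of probe sets and none of the members were called. In that comparison Dkk1 and Hesx1 had an unadjusted p under 0.05, beside 8.24% of all probe sets. In the 8 HexERTVP2 groups Dkk1 ran from 4.99 to 5.42, with the highest mean, 5.26, in unrecombined clone 1 without 4-OHT. The Dkk1 change from unrecombined to recombined cells was greater in Hex than in HexERTVP2 without 4-OHT by 0.36 (SE 0.09, adjusted p = 0.0317), in the comparison added later. That call ended with adjustment for the β-actin ratio (0.29, adjusted p = 0.0778). It also ended without arrays 1 or 2 of recombined Hex, array 3 of recombined clone 1, arrays 2 or 3 of recombined clone 2 or array 3 of unrecombined clone 2 (0.34 to 0.35, adjusted p up to 0.0947). Dkk1 was 0.18 above wild type in unrecombined HexERTVP2 cells (SE 0.06, adjusted p = 0.155). Without array 2 of unrecombined Hex, which enters the common spread, its adjusted p was 0.0450, and 8.13% of probe sets were called.

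Cer1 varied least. Its group means lay between 4.38 in wild type and 4.51 in recombined Hex, and its arrays ran from 4.22 to 4.77. In recombined Hex it read 4.47, 4.29, 4.77 and 4.51, against 4.43, 4.63, 4.45 and 4.40 in unrecombined Hex, and the change was 0.03 (SE 0.10, limma adjusted p = 0.908).

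Among the homeodomain genes, Hesx1 read 4.65, 4.74, 4.69 and 4.63 in recombined Hex, against 4.22, 4.79, 4.31 and 4.04 in unrecombined Hex. Array 2 alone of the unrecombined group exceeded the recombined arrays, so the groups overlapped because of it. With that array the change was 0.34 (SE 0.10, limma adjusted p = 0.0639); without it the change was 0.49 (SE 0.09, adjusted p = 2.86e-04, 6.26% of probe sets called). The recombined Hex arrays also lay above the wild-type arrays, at 4.52, 4.49, 4.40 and 4.30, but the difference of 0.25 (SE 0.10, adjusted p = 0.552) did not pass. Without array 2 the difference between the effects of Hex and HexERTVP2 recombination was 0.51 for Hesx1 (adjusted p = 0.00198), against 0.36 with it (adjusted p = 0.158). In unrecombined clone 2, Hesx1 read 4.29, 4.33 and 4.15 with 4-OHT and 4.63, 4.47 and 4.59 without it; the groups did not overlap, and the change of -0.30 (SE 0.12) did not pass (adjusted p = 0.531, 0% of probe sets called). In unrecombined clone 1 the values were 4.57, 4.39 and 4.51 with 4-OHT and 4.39, 4.38, 4.30, 4.27 and 4.35 without it, again without overlap. The change of 0.15 (SE 0.11) had the other sign and did not pass. The share of all probe sets without overlap was not counted for either clone.

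Gsc varied widely within groups. Its arrays ran from 4.02 to 4.796, with SDs up to 0.25 in a group, and no group mean differed by a called amount from another in the comparisons made. Unrecombined HexERTVP2 cells exceeded wild type by 0.22 (SE 0.10, limma adjusted p = 0.297), and recombined HexERTVP2 cells without 4-OHT differed from unrecombined ones by -0.18 (SE 0.08, adjusted p = 0.426). In that comparison Gsc read 4.43, 4.53, 4.33 and 4.02 in recombined clone 1 and 4.60, 4.47, 4.74, 4.26 and 4.63 in unrecombined clone 1, and the groups overlapped.

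**Figure D3:**
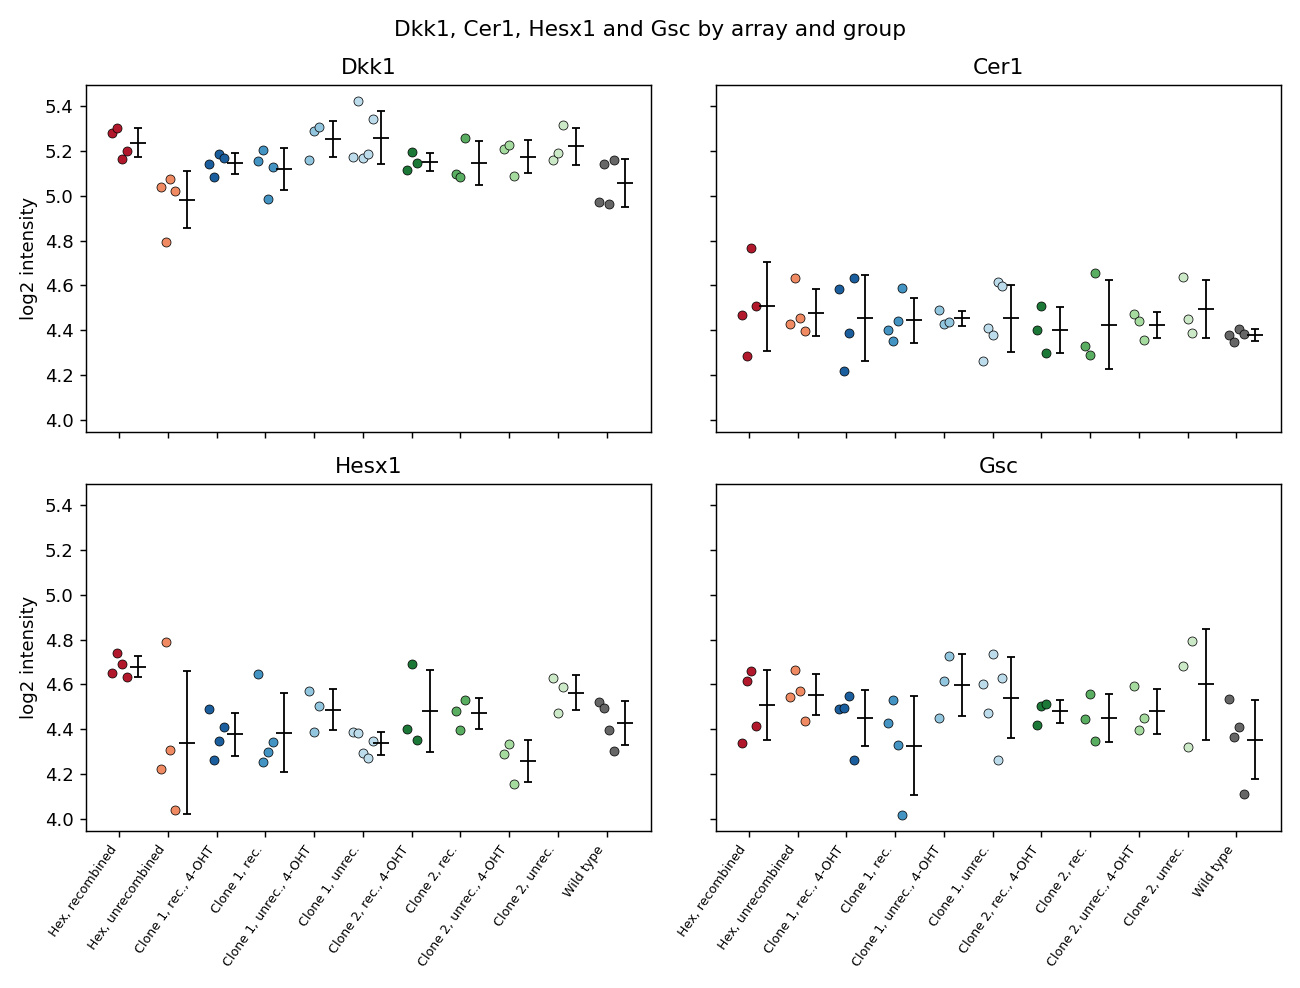
Log2 intensity of Dkk1, Cer1, Hesx1 and Gsc on each array (points) by group, with group mean and SD beside the points. Dkk1 and Hesx1 in recombined Hex lie above wild type, and array 2 of unrecombined Hex is the lowest for Dkk1 (4.79) and high for Hesx1 (4.79).

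**Figure D4:**
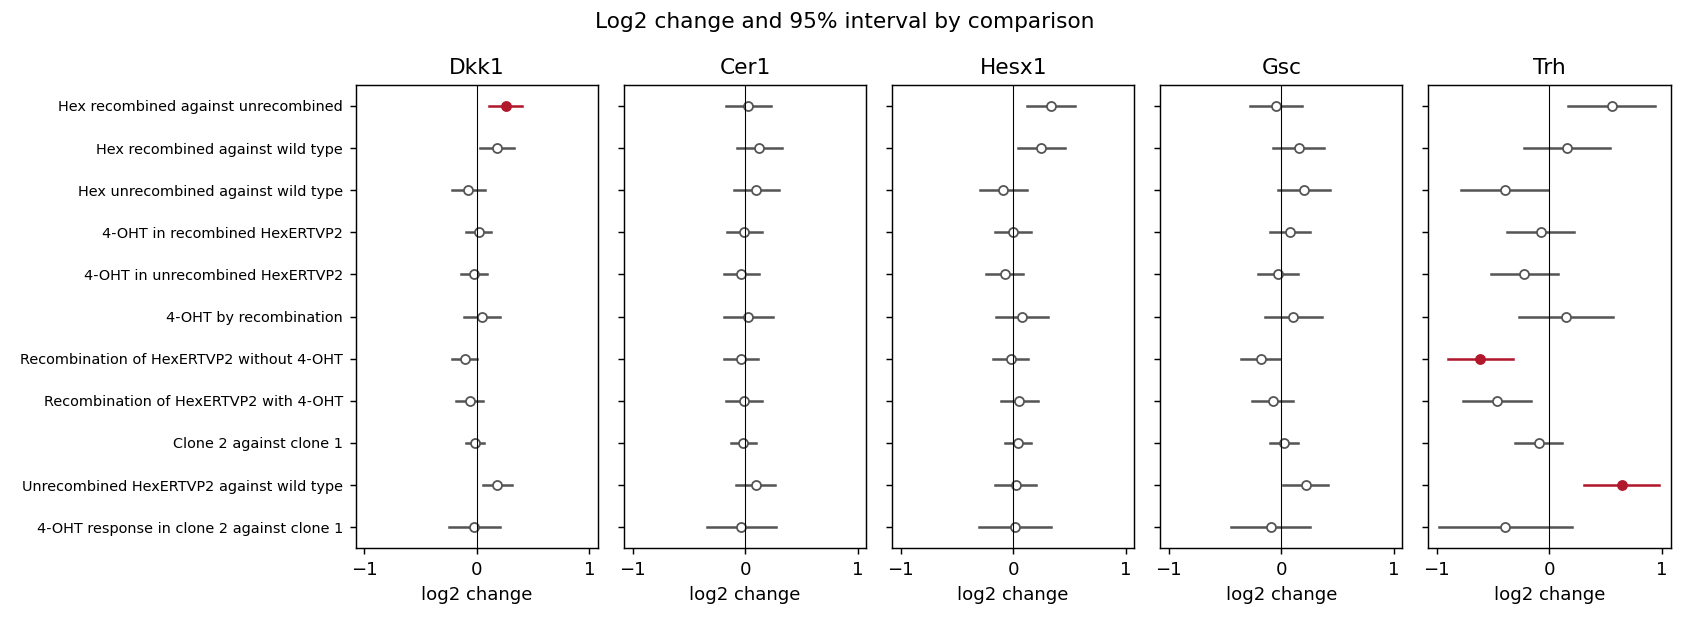
Log2 change with 95% interval for each member (columns) in the 11 comparisons (rows), filled red where the adjusted p is below 0.05. Dkk1 passes for recombined against unrecombined Hex, and Trh for recombination of HexERTVP2 without 4-OHT and for unrecombined HexERTVP2 against wild type.

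The genes whose 11 group means were most like those of each member were sought among 2592 probe sets with a range of at least 0.5. Trh was most like H2-D1 (Pearson r = 0.893), Isg15 (0.853) and H2-K1 (0.844). H2-D1 and H2-K1 encode class I histocompatibility proteins, and Isg15 is an interferon-induced ubiquitin-like protein. All 3 were also higher in recombined than in unrecombined Hex, a contrast that entered their choice: Isg15 by 0.83 (SE 0.12, limma adjusted p = 1.65e-05), H2-D1 by 0.35 (SE 0.09, adjusted p = 0.0161) and H2-K1 by 0.34 (SE 0.08, adjusted p = 0.00579). Trh itself did not pass in that comparison. None of the 3 passed for recombination of HexERTVP2 without 4-OHT, at -0.18 for H2-D1, -0.25 for Isg15 and -0.18 for H2-K1 (adjusted p = 0.181 to 0.260), or for unrecombined HexERTVP2 against wild type, at 0.17, 0.08 and 0.15 (adjusted p = 0.260 to 0.716). H2-D1 and H2-K1 are close relatives, and their probe sets may read each other's RNA. H2-D1 was also the closest to Dkk1 (r = 0.898), and the group means of Dkk1 and Trh had r = 0.853. These group means come from the same arrays and share their array-to-array spread. For the other members the best matches were Tdrp for Cer1 (0.765), Bphl for Hesx1 (0.790) and Xrcc1 for Gsc (0.807).

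**Figure D5:**
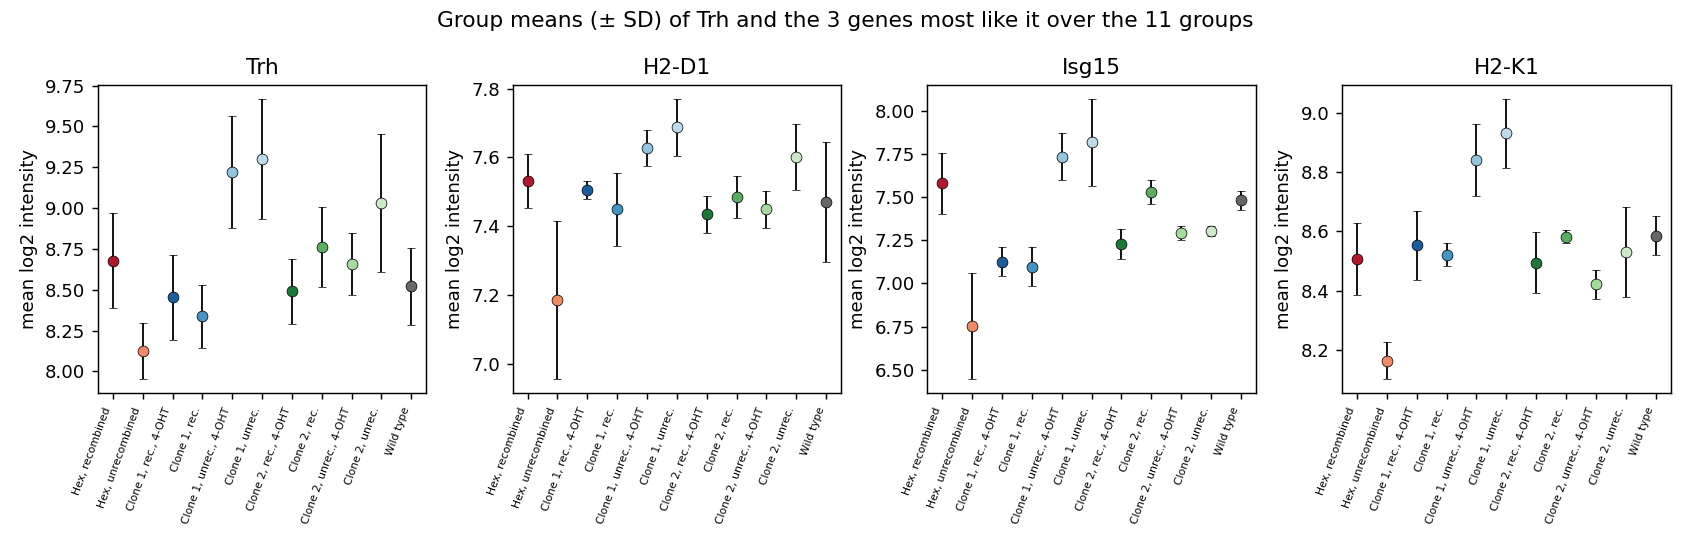
Mean log2 intensity ± SD in the 11 groups for Trh, H2-D1, Isg15 and H2-K1. In all 4 genes recombined Hex lies above unrecombined Hex, which has the lowest mean.

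Among 96 other genes of 7 pathway and tissue lists, recombination of Hex called 4 genes (4.17%, against 3.37% of all probe sets), and 7 without array 2 (7.29%, against 6.26%). Of 28 further anterior endoderm and head organizer genes measured, 1 rose with recombination of Hex: Amot, a marker of that tissue, by 0.50 (SE 0.13, limma adjusted p = 0.0226). The list's median change was 0.04, against 0.01 over all probe sets. Of 10 Wnt antagonists and Dkk1 receptors, none passed there; Igfbp4, a secreted protein that can block Wnt, was at 0.30 (adjusted p = 0.0711) and passed without array 2. Of 10 Wnt and β-catenin targets none passed, with Myc at -0.48 (adjusted p = 0.159). Of 28 genes of the Nodal and BMP pathways, 1 rose: Id3, a BMP target, by 1.001 (SE 0.23, adjusted p = 0.00927). Of 13 forebrain, eye and pituitary homeodomain genes, Gbx2, which is known for the hindbrain side of the midbrain border, fell by 1.14 (SE 0.21, adjusted p = 9.23e-04) and none rose. Of 10 genes of the thyrotropin axis, 1 rose: Cpe, the carboxypeptidase that trims prohormones, by 0.83 (SE 0.16, adjusted p = 0.00119). None of 13 primitive streak and mesoderm genes passed.

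Among 46 cell marker genes the same comparison called 6 (13%), and 11 without array 2 (23.9%), beside the same 3.37% and 6.26% of all probe sets. Of 19 primitive and visceral endoderm genes, 2 rose: Col4a1, a basement membrane collagen, by 1.10 (SE 0.18, limma adjusted p = 2.32e-04) and Krt8, a keratin, by 1.02 (SE 0.19, adjusted p = 0.00103). The summed intensity of this list was 3364 to 3511 in recombined Hex and 2789 to 3038 in unrecombined Hex; Gata4, Gata6 and Sox17 averaged 8.51, 5.97 and 7.11 over all arrays. Of 16 ES cell genes 4 rose and none fell: Dppa3 (1.78), Nanog (0.65), Klf2 (0.53) and Tbx3 (0.32). Of 11 fibroblast genes none passed; their sum was 1321 to 1694 in recombined Hex and 1255 to 2959 in unrecombined Hex, where array 2 held the 2959 and the other 3 arrays lay at 1255 to 1299. The ES cell sum on those 3 arrays was 17010 to 18270, against 8128 on array 2 and 13220 to 18450 in recombined Hex. The part of these markers in the values of Dkk1, Hesx1 and Trh was not tested.

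Recombination of HexERTVP2 without 4-OHT called 1 of the 137 genes of the 10 lists (0.73%, against 0.467% of all probe sets): Inhbb, an activin subunit, which rose by 0.42 (SE 0.09, limma adjusted p = 0.0126). Without array 2 of unrecombined Hex, which enters the common spread, 10 were called (7.30%, against 3.38%), of which 7 were ES cell genes that rose, Klf4 and Dppa3 among them; adjusted for the β-actin ratio, 4 were called (2.92%, against 0.749%). With all arrays Inhbb was also the 1 list gene called for 4-OHT in recombined cells, where it fell by 0.47 (SE 0.09, adjusted p = 0.0263, 0.0322% of probe sets called); without array 2 there were 3 (0.145% of probe sets called), and 3 after adjustment for the β-actin ratio. Both comparisons use the recombined arrays without 4-OHT. The endoderm sum was higher in recombined than in unrecombined clone 1 (3801 to 4232 and 3194 to 3319), and lower in recombined than in unrecombined clone 2 (3262 to 3282 and 3904 to 4096). In unrecombined HexERTVP2 cells against wild type, Lrp6, the Dkk1 receptor, fell by 0.30 (SE 0.07, limma adjusted p = 0.0209), Col4a1 and Col4a2 rose by 0.76 and 0.50, Fgfr2 fell by 0.54, and Dppa3 and Nanog fell by 1.17 and 0.59. None of the 10 thyrotropin axis genes passed there. In all, 6 of the 137 genes were called (4.38%, against 1.46% of all probe sets), and 22 without array 2 (16.1%, against 8.13%). Between clones, where 2 of the 137 were called (1.46%, against 1.22%) and 13 without array 2 (9.49%, against 3.25%), En2, a homeodomain gene of the midbrain, was 0.26 higher in clone 2 (SE 0.05, adjusted p = 0.00684), and Krt18 was lower in clone 2 (-0.68, SE 0.11, adjusted p = 2.17e-04).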

How the data were processed

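The authors deposited 1 intensity per probe set and array, on a linear scale, for 44 arrays; per the submitters' processing notes the values came from RMA, with no version, settings or genome build given in the sources used here. The intensities were converted to log2. Of 12488 probe sets, 66 controls were left out and 12422 tested without a filter. Gene names are those of the platform annotation: 10833 probe sets had 1 symbol, 396 several and 1193 none. In 4 arrays the title words and the array code disagreed, and these entered no comparison. All 11 groups entered 1 model in limma (version 3.58.1, under R 4.3.3) with 29 residual degrees of freedom, with two-sided moderated tests and Benjamini-Hochberg adjustment over all probe sets of a comparison at 0.05. Errors of changes are standard errors. No 2 arrays held identical values (highest correlation 0.99796). Array data have no read depth, and the number of arrays limits precision. The fit was tested on simulated data.

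Members were named in every comparison. From each of 10 gene lists the rule took up to 4 called genes, otherwise up to 2 as values, each gene by its brightest probe set; the text prints a selection. Likeness was Pearson's r over the 11 group means. Upstream sequences came from RefSeq (GRCm38.p6), where all 6 members matched, and motifs were searched on both strands. The members, lists and alternatives were chosen with earlier results of these data known. Alternatives were normalisation, a filter on dim probe sets, variance moderation, array weights, arrays fitted, a replicate block, the β-actin ratio as a covariate and left-out arrays; the added comparisons, the fit without array 2 combined with the β-actin covariate, and the fit without the 3 arrays with a β-actin ratio above 2 were chosen after seeing the data. Figures were drawn with matplotlib 3.10.9.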

Additional observations from a re-analysis of the deposited data

Results flagged for a closer look

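Trh on array 2 of recombined clone 1 without 4-OHT stood at 8.63, apart from the other arrays of its group at 8.21 to 8.28. Its β-actin ratio was 0.73, against 1.59 to 2.34 on those 3 arrays; the part of the ratio was not tested. Of the sets of arrays checked, 1 of 30 was this far apart, and chance gives about 1 in 20. Array 2 also held the highest Trh in recombined clone 1 with 4-OHT (8.74) and unrecombined clone 1 with 4-OHT (9.60). The same held in unrecombined clone 2 without 4-OHT (9.41) and recombined Hex (9.10), and in no other group.

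The effect of recombination differed between Hex and HexERTVP2 without 4-OHT by 1.17 for Trh (limma adjusted p = 0.00620) and by 0.36 for Dkk1 (adjusted p = 0.0317). The unrecombined lines themselves differed by 1.04 for Trh and 0.26 for Dkk1 (HexERTVP2 minus Hex). The same unrecombined arrays enter both comparisons, so these are not separate results. Trh was higher in all 4 recombined Hex arrays than in the unrecombined ones, and lower in all 4 recombined clone 1 arrays than in the unrecombined ones. How many of all probe sets separate likewise was not counted.

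The 4 arrays left out of the comparisons gave values outside the wild-type arrays for each of the 5 members. Wild type has 4 arrays, a narrow range to fall outside, and the share of all probe sets outside it was not counted. Assigned HexERTVP2 arrays lay above wild type too, with Dkk1 up to 5.42 and Cer1 up to 4.66. Dkk1 was at 5.31, 5.32 and 5.30 on unassigned arrays 1, 2 and 4, against at most 5.16 in wild type. Cer1 was at 4.53 and 4.58 on unassigned arrays 2 and 4, against at most 4.41. Hesx1 was at 4.57 and 4.62 on unassigned arrays 1 and 4, against at most 4.52. Trh was at 8.89 on unassigned array 2, against at most 8.77, and at 8.53, 8.70 and 8.47 on the others. On the low side, Gsc was at 3.80 on unassigned array 1, below each of the 40 assigned arrays (at least 4.02), and at 4.28, 4.46 and 4.34 on the others. Dkk1 was at 4.89 on unassigned array 3, against at least 4.96 in wild type, and Cer1 at 4.24 and 4.14 on unassigned arrays 1 and 3, against at least 4.35. Hesx1 was at 4.32 and 4.48 on unassigned arrays 2 and 3, within the wild-type range.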

How the results depend on the processing

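Counts of called members moved with the processing. For recombined against unrecombined Hex the count was 1 (Dkk1). It became 2 with the β-actin covariate (Dkk1 and Hesx1), 3 with array weights, and 2 with the covariate and without array 2 (Hesx1 and Trh). It was 0 with median-centred arrays or with only the groups compared. With dim probe sets left out it was also 0, but that filter removed Dkk1, Cer1, Hesx1 and Gsc before the test. Leaving out single arrays gave 0 to 1. The Dkk1 call held in 3 of 10 alternatives. With quantile normalisation Hesx1 passed (limma adjusted p = 0.00359) and Dkk1 did not (0.0964), and the same swap came without array 2. For recombined Hex against wild type it was 0, and 1 with the covariate and without array 2 (Hesx1). For unrecombined Hex against wild type it was 0, and 1 with array weights (Hesx1). For recombination of HexERTVP2 without 4-OHT it was 1, and 0 with only the groups compared; leave-one-out gave 0 to 1. With 4-OHT it was 0, and 1 with the covariate, with array weights or with the covariate and without array 2 (Trh). For unrecombined HexERTVP2 against wild type it was 1; it became 2 without array 2, with the covariate and without array 2, or without the arrays with a β-actin ratio above 2, and 0 with only the groups compared; leave-one-out gave 0 to 1. For any difference among groups it was 1, and 2 under each of those 3 settings without array 2, and 3 with array weights; leave-one-out gave 1 to 2. No member reversed its sign where called. Trh kept its call for recombination of clone 1 without 4-OHT, and for the differences of unrecombined HexERTVP2 from unrecombined Hex and of Hex from HexERTVP2 recombination, under all alternatives run, with adjusted p up to 0.0414. Numbers of called probe sets moved by more than 1.5 times in most comparisons. Over the alternatives that keep or drop fixed arrays, they ran from 8 to 1638 for recombined against unrecombined Hex (419 in the fit reported), 23 to 613 for recombined Hex against wild type (33), 14 to 1543 for unrecombined Hex against wild type (599), 2 to 97 for 4-OHT in recombined cells (4), 1 to 24 for its difference between states (2), 36 to 559 for recombination of HexERTVP2 without 4-OHT (58) and 17 to 248 with it (23), 96 to 761 between clones (151), 114 to 2480 for unrecombined HexERTVP2 against wild type (181), 56 to 2031 against unrecombined Hex (517), 45 to 2095 between the recombination effects (241) and 430 to 4236 for any difference among groups (642). The lowest counts came with dim probe sets left out, where fewer probe sets were tested, or with only the groups compared. The highest came with array weights or with the covariate and without array 2. Leave-one-out gave 233 to 778 for Hex and 25 to 149 for recombination of HexERTVP2 without 4-OHT. Same-numbered arrays deviated together more often than others (median correlation 0.124, with 88 of 173 pairs over 0.1, against -0.0666, with 220 of 552), and 17 of 40 arrays correlated best with their own number. Same-numbered pairs ran from -0.702 to 0.849, and pairs of different numbers from -0.83 to 0.816. No label gives a shared origin, so the fit reported did not pair the arrays by number. Its p-values leave out any such sharing. The β-actin ratio also moved with the number (median 0.777 on arrays 2, against 1.16 to 1.34 on arrays 1, 3 and 4). With the replicate block Dkk1 lost its Hex call (adjusted p = 0.0510), Trh passed for Hex (0.0371) and clone 1 Trh no longer differed from wild type by a called amount (0.0569), Trh passed for recombination of clone 1 with 4-OHT (0.0374), and the counts above stayed the same. The causes of these shifts were not tested. Dim probe sets near the background limit what can be seen for Cer1, Gsc, Hesx1 and Dkk1.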
